A study of Mus musculus with 4 samples.

Results

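The p53 target genes Cdkn1a, Mdm2, Ccng1, Bax, Bbc3, Pmaip1, Fas, Phlda3, Gdf15 and Eda2r, 10 of the 32285 genes counted, were followed in host cells and KPC tumor cells of pancreatic tumors after ganciclovir (GCV). The genes were matched by symbol, and all 10 were found in the count tables. The set was chosen by its UMI levels after GCV, in host cells against KPC tumor cells, in these same libraries. Its differences between Pdgfrb-TK/GCV and Pdgfrb-TK/PBS are therefore given as descriptions. KPC cells, a mouse pancreatic cancer line with a mutant Trp53 allele, were grafted into the pancreas of obese male C57BL/6 mice kept on a high-fat diet, which the labels give as 7 months old and the study's methods as older. Tumors were dissociated, and scRNA-seq gave 4 libraries, 1 per condition. The labels name a single mouse for each, and the study's methods describe suspensions pooled by treatment. Pdgfrb-TK/GCV and Pdgfrb-TK/PBS came from mice that carry thymidine kinase (TK) under the Pdgfrb promoter and received GCV or PBS. D-CAN and WT/PBS came from C57BL/6 mice without the transgene that received PBS or D-CAN, a peptide that homes to adipose stromal cells and carries a killing sequence. TK turns GCV into a nucleotide analog that blocks DNA synthesis. The transgene is driven by a promoter active in stromal and mural cells, the graft does not carry it, and TK transcripts were not measured. No library of mice without the transgene that received GCV was analysed here, so GCV itself and GCV with TK cannot be told apart.

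The p53 protein is a transcription factor that accumulates after DNA damage and other stresses. Its targets stop the cell cycle, repair DNA, kill the cell or switch p53 off again. Cdkn1a encodes p21, the inhibitor of cyclin-dependent kinases behind p53-driven arrest, and Ccng1 encodes cyclin G1, a regulator of Mdm2. Mdm2 encodes the ubiquitin ligase that degrades p53 and closes a feedback loop. Bax, Bbc3 (PUMA) and Pmaip1 (NOXA) encode BCL2 family members that promote death through mitochondria, and Fas and Eda2r encode receptors of the tumor necrosis factor receptor family. Phlda3 encodes a pleckstrin homology protein that restrains Akt, and Gdf15 encodes a secreted member of the TGF-β family that many stresses induce. Several of them, above all Cdkn1a and Gdf15, are also switched on without p53.

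Cells with at least 200 genes numbered 44554, of which 23464 passed the marker gate of KPC tumor cells and 12206 that of a host class. Libraries held 10495 to 12280 cells and 84020317 to 155408336 unique molecular identifiers (UMIs), and pairs of libraries shared 26 to 42 cell barcodes. Pdgfrb-TK/PBS had the fewest UMIs in all and D-CAN the fewest per cell (median 3963.5). CAF-marker cells of Pdgfrb-TK/PBS had a median of 4625 UMIs against 10541 in Pdgfrb-TK/GCV. Below, lists of 4 values run from Pdgfrb-TK/GCV through Pdgfrb-TK/PBS and D-CAN to WT/PBS. Cells with over 20% mitochondrial UMIs were kept and made up 4.48%, 8.42%, 29.3% and 18.2% of those with at least 200 genes. CAF-marker cells numbered 281, 484, 1468 and 2088. A cell needed only 2 detected host markers to pass, and all 8 CAF markers were detected in the summed UMIs of the class in each library. These 8 markers, on which the gate rests, summed to 11864.5, 18953, 25705 and 20204 CPM, the UMIs per 1000000 UMIs of the class, lowest where GCV had been given. Pdgfrb stood at 56.3, 229, 245 and 156 CPM, also lowest there. Intervals are at 95%, exact except for folds of shares of cells, and cover counting error only. With 1 library per condition nothing was checked in replicates.

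Trp53, the gene of p53 itself, was level between the Pdgfrb-TK libraries in CAF-marker cells. It stood at 51.6, 52.4, 47.9 and 21.0 CPM, 0.984-fold (0.781 to 1.24) in Pdgfrb-TK/GCV against Pdgfrb-TK/PBS. In KPC tumor cells it stood at 90.1, 77.3, 89.3 and 40.6 CPM. Since p53 is regulated mainly as a protein, its transcript level does not measure its activity.

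Promoter sequence was available from RefSeq (GRCm38.p6, 250 bases before to 50 after a start) for 9 of the 10 genes, with 13 promoters. They were searched on both strands for the p53 half-site consensus of 10 bases. A half-site lay in 4 of the 13 promoters (30.8%), against 8.36% of all 32851 promoters of the same length. A full site, which is a pair of half-sites at most 13 bases apart, lay in 24 promoters of all (0.0731%), and 1 Cdkn1a promoter was among them. The other Cdkn1a promoter, at chr17:29093519-29093818, had 0 half-sites. The 4 promoters with a half-site follow, since they include Cdkn1a and Ccng1, the members with the highest log2 ratios in CAF-marker cells between the Pdgfrb-TK libraries among those with at least 20 UMIs there. Capitals mark the half-sites, and sequences run 5′ to 3′ on the gene's strand.
Cdkn1a, chr17:29090729-29091028, plus strand, half-sites starting at -73 and -51 from the start: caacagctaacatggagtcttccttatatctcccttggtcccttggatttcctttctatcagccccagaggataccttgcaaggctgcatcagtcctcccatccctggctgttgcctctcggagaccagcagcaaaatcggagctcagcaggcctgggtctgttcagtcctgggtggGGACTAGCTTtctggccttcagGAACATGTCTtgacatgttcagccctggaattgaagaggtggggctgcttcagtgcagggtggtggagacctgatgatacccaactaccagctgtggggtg
Mdm2, chr10:117710709-117711008, minus strand, half-site starting at -186: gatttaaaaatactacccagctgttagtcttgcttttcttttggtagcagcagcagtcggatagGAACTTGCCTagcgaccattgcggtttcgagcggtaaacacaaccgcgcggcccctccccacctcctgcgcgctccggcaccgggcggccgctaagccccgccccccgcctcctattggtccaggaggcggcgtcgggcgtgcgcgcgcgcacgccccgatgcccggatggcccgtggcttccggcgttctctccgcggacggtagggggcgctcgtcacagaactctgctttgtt
Ccng1, chr11:40755237-40755536, minus strand, half-site starting at -185: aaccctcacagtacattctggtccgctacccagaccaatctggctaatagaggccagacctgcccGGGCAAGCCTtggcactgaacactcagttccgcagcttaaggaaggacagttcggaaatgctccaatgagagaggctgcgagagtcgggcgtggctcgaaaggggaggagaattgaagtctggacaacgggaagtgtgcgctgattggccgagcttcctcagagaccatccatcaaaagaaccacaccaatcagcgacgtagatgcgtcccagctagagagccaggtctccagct
Bax, chr7:45466849-45467148, minus strand, half-site starting at -201: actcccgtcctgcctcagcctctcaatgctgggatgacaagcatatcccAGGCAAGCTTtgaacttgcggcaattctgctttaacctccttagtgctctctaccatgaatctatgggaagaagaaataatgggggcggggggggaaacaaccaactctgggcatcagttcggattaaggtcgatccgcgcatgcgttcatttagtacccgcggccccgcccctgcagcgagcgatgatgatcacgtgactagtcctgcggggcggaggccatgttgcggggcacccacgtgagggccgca
The half-sites of Mdm2, Ccng1 and Bax lie farther from the start than the pair of Cdkn1a. A match of letters only describes the window, and introns and sequence farther upstream were not searched.

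Cdkn1a had the highest log2 ratio of the members in CAF-marker cells between the Pdgfrb-TK libraries, and Ccng1 the highest against WT/PBS. It stood at 480, 101, 76.8 and 172 CPM, from 1545, 269, 967 and 3680 UMIs. Pdgfrb-TK/GCV was above the other 3 libraries with no overlap of intervals, 4.73-fold (4.16 to 5.41) above Pdgfrb-TK/PBS and 2.79-fold (2.63 to 2.96) above WT/PBS. The gene lies at chr17:29090976-29100727 on the plus strand of mm10.

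Ccng1, at chr11:40748552-40755311, showed the same order at the top. It stood at 116, 41.1, 43.1 and 28.8 CPM, 2.83-fold (2.28 to 3.53) above Pdgfrb-TK/PBS and 4.04-fold (3.54 to 4.6) above WT/PBS. The 3 libraries without GCV lay within 28.8 to 43.1 CPM. Mdm2, at chr10:117688875-117710758, differed less, at 91.1, 47.5, 61.3 and 76.4 CPM. That was 1.92-fold (1.55 to 2.38) against Pdgfrb-TK/PBS and 1.19-fold (1.05 to 1.35) against WT/PBS, below 2-fold in both.

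Among the genes of cell death, Bax and Eda2r were highest after GCV and Pmaip1 was lowest. Bax (chr7:45461697-45466898) stood at 173, 105, 79.0 and 114 CPM, 1.65-fold (1.43 to 1.91) above Pdgfrb-TK/PBS. Eda2r (chrX:97333840-97377216) stood at 29.2, 12.1, 12.9 and 11.5 CPM, 2.42-fold (1.61 to 3.74) above Pdgfrb-TK/PBS and 2.54-fold (1.98 to 3.23) above WT/PBS. The 3 libraries without GCV did not differ in Eda2r beyond their intervals. Bbc3 (chr7:16308393-16318205) rested on 32, 13, 70 and 219 UMIs and stood at 9.95, 4.90, 5.56 and 10.2 CPM, so that Pdgfrb-TK/GCV and WT/PBS overlapped. Its fold of 2.03 (1.04 to 4.21) against Pdgfrb-TK/PBS became a log2 ratio of 0.89 once 1 CPM was added to both values. Pmaip1 went the other way, at 7.46, 13.2, 14.5 and 53.4 CPM, 0.565-fold (0.322 to 0.977) against Pdgfrb-TK/PBS and 0.140-fold (0.0892 to 0.209) against WT/PBS. Fas (chr19:34290666-34327772) stood at 28.0, 19.6, 21.8 and 127 CPM, and its WT/PBS value was far above the other 3.

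Phlda3 (chr1:135766119-135769136) stood at 174, 95.1, 80.9 and 86.4 CPM, 1.83-fold (1.58 to 2.13) above Pdgfrb-TK/PBS and 2.02-fold (1.83 to 2.22) above WT/PBS. As with Eda2r and Ccng1, the PBS libraries and D-CAN lay close together and the GCV library stood above them. Gdf15 (chr8:70629393-70632456) had 11, 0, 91 and 727 UMIs, or 3.42, 0, 7.23 and 34.0 CPM. Against Pdgfrb-TK/PBS, with no UMI, it was 3.02-fold a floor of 3 counts in that library, and the exact interval of the ratio began at 2.07. The gene missed the minimum of 20 UMIs over both libraries. Against WT/PBS it was 0.101-fold (0.05 to 0.181), so WT/PBS was the highest library for Gdf15.

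**Figure D1:**
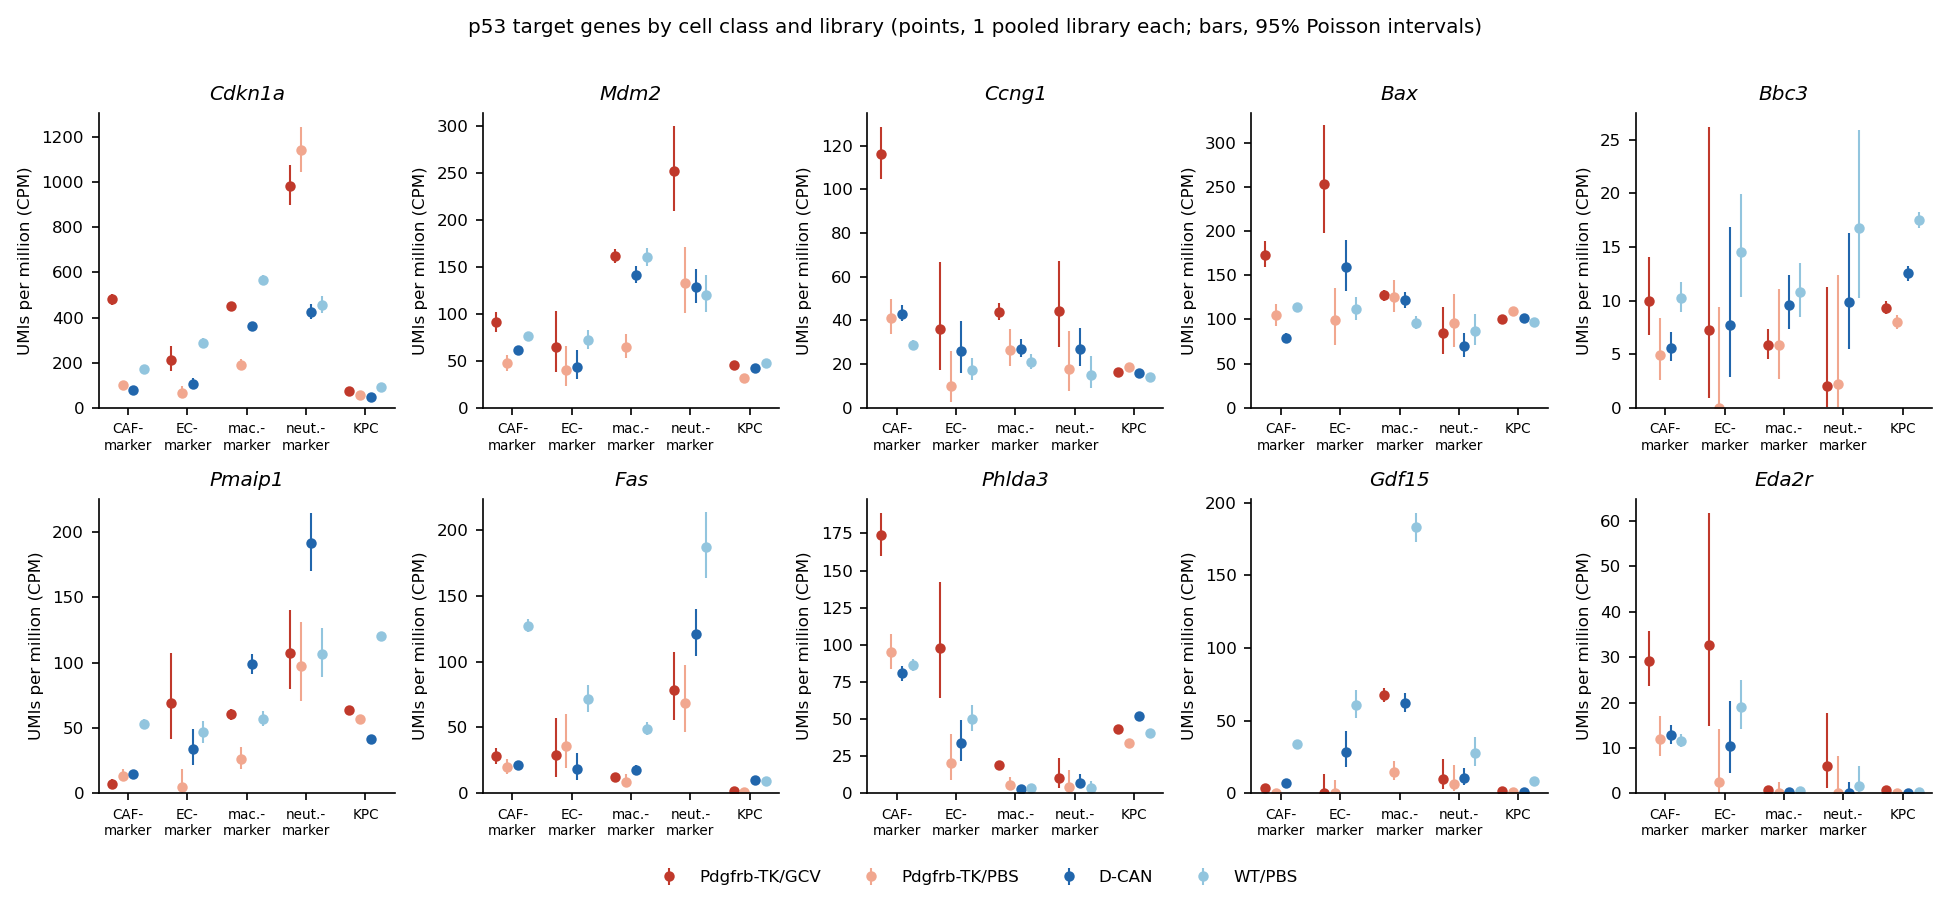
CPM (vertical axes, from 0) of the 10 genes in CAF-marker, endothelial-marker (EC), macrophage-marker (mac.), neutrophil-marker (neut.) and KPC tumor cells, with 1 point per library and bars for 95% Poisson intervals. In CAF-marker cells the GCV library lies above the other 3 for Cdkn1a (480 CPM), Ccng1 (116 CPM), Bax (173 CPM), Phlda3 (174 CPM) and Eda2r (29.2 CPM), and in KPC tumor cells the 4 libraries lie closer together for the first 4 of these.

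Taking a difference of at least 2-fold (a log2 ratio of 1 with 1 CPM added) among genes with at least 20 UMIs over both libraries, 3 of the 10 genes, Cdkn1a, Ccng1 and Eda2r, were higher in CAF-marker cells of Pdgfrb-TK/GCV than of Pdgfrb-TK/PBS. The minimum was met by 9 of the 10. Of all 11568 genes that met it, 2.49% were at least 2-fold higher and 5.94% at least 2-fold lower. The median log2 ratio was 0.91 over the 10 genes and -0.14 over all genes that met the minimum. Summed over the 10 genes, the level was 1113 CPM against 440 CPM, 2.53-fold (2.37 to 2.71). Cdkn1a alone made up 480 and 101 CPM of these sums. Eda2r dropped below 2-fold with 10 CPM added, with the mean of the cells' own CPM and with a stricter gate, which left Cdkn1a and Ccng1. With median-of-ratios scaling, which moved the median of all genes from -0.14 to 0.03, 6 members and 3.82% of all genes were at least 2-fold higher.

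WT/PBS, the control of the study's separate D-CAN experiment, was set against the same GCV library as a second control. Against it, Cdkn1a, Ccng1, Phlda3 and Eda2r were at least 2-fold higher in Pdgfrb-TK/GCV (9.01% of 14583 genes were), and Pmaip1, Fas and Gdf15 at least 2-fold lower (13.4% were). Between the PBS libraries, 3 members (Pmaip1, Fas and Gdf15) were at least 2-fold lower in Pdgfrb-TK/PBS than in WT/PBS (9.48% of genes were). Genotype, experiment, depth, library and the reference used for counting cannot be told apart in that difference, nor in the comparisons of Pdgfrb-TK/GCV with WT/PBS. Cdkn1a was at a log2 ratio of -0.76, Ccng1 of 0.50, Phlda3 of 0.14 and Eda2r of 0.06 between the PBS libraries.

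The makeup of the CAF-marker cells differed between libraries. The gated cells lay mostly in a cluster led by Mgp, Tagln and Thbs2 (2795 cells). A further cluster led by Chl1, Igf1 and C3 (621 cells) came mainly from D-CAN. A cluster of median depth 1013 UMIs, led by AY036118 and mitochondrial genes and mainly from WT/PBS, held 435 of them. Another 355 lay in a cluster with a median of 48.6% mitochondrial UMIs, to which D-CAN gave the most cells. The part of cell quality in the differences between libraries was not tested. The 5 mesothelial markers summed to 200, 180, 167 and 55.0 CPM in the CAF-marker cells. Most of that sum was Wt1, at 145.5, 137, 157 and 53.8 CPM, while Upk3b stood at 25.5, 15.8, 2.70 and 0.0935 CPM. Cells were split by unthinned mesothelial UMIs, so the split also depends on depth (medians 10541, 4625, 5256 and 8928 UMIs). In CAF-marker cells with a UMI of a mesothelial marker (176, 221, 612 and 593 cells), Cdkn1a was at 499 CPM after GCV and 82.1 CPM in Pdgfrb-TK/PBS, 6.07-fold (5.03 to 7.38). In those without one (105, 263, 856 and 1495 cells) it was at 421 and 126 CPM, 3.35-fold (2.75 to 4.10). Cdkn1a was beyond 2-fold in both, and so was Ccng1, at 3.1-fold (2.32 to 4.20) and 2.48-fold (1.74 to 3.56). At least 2-fold higher were 6 of the 10 genes in the first set (2.88% of genes were) and 2 of the 10 in the second (2.5% were). Against WT/PBS the counts were 3 genes (Cdkn1a, Ccng1, Eda2r; 9.42% of genes) and 3 genes (Cdkn1a, Ccng1, Phlda3; 10% of genes), with Cdkn1a at 2.40-fold (2.23 to 2.58) and 2.88-fold (2.55 to 3.24).

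**Figure D2:**
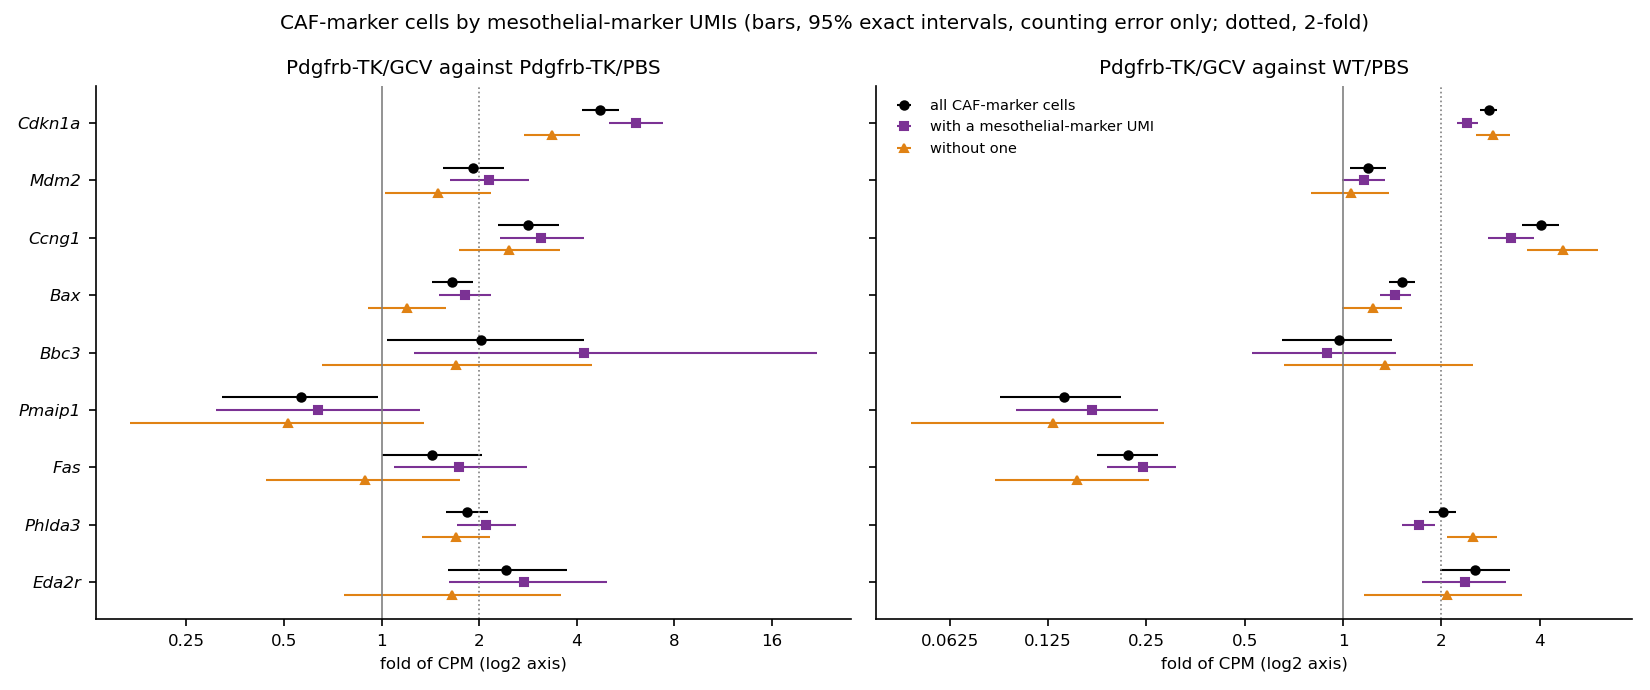
Fold of CPM (horizontal, log2 axes) of 9 of the genes in CAF-marker cells of Pdgfrb-TK/GCV against Pdgfrb-TK/PBS (left) and WT/PBS (right), in all of these cells and in those with or without a UMI of a mesothelial marker, with bars for exact 95% intervals, a line at 1 and a dotted line at 2-fold. Cdkn1a and Ccng1 lie beyond 2-fold in every set and against both controls, Pmaip1 lies below 1 throughout, and Gdf15 is left out because Pdgfrb-TK/PBS had no UMI.

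Macrophage markers summed to 158 CPM in CAF-marker cells of Pdgfrb-TK/GCV (10 of 10 markers above 0) and 83.4 CPM in those of Pdgfrb-TK/PBS (8 of 10), and KPC markers to 691 and 1014 CPM. In macrophage-marker cells of Pdgfrb-TK/GCV, macrophage markers summed to 10847 CPM and Cdkn1a stood at 450 CPM, beside 480 CPM in the CAF-marker cells. The part of macrophage or KPC RNA in the differences was not tested.

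Cdkn1a was also found in the largest share of CAF-marker cells after GCV. Each cell was thinned to 2000 UMIs, which left 252, 409, 1064 and 1606 of these cells. A Cdkn1a UMI remained in 43.7% (37.4 to 50.02), 12.96% (9.86 to 16.6), 8.18% (6.6 to 9.99) and 21.9% (19.9 to 24.0) of them. The cells left out as shallower numbered 29, 75, 404 and 482. The share after GCV was 3.37-fold (2.41 to 4.77) that of Pdgfrb-TK/PBS, which became 5.56-fold when cells were thinned to 1000 UMIs. Unthinned shares were 70.5%, 19.4%, 17.4% and 40.9%. Lymphocytes of the same suspension were counted beside them. Free RNA can add UMIs to every cell type, and its part in these shares was not tested. B-marker cells of Pdgfrb-TK/GCV had a Cdkn1a UMI in 7.48% (3.28 to 14.2) of 107 cells at the same depth, and T/NK-marker cells in 1.67% (0.0422 to 8.94) of 60. The median depth before thinning was 1936 UMIs in the B-marker cells and 10541 in the CAF-marker cells.

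Cells in which several members were detected were counted as well. The mean number of members detected per thinned CAF-marker cell was 1.38, 0.672, 0.556 and 1.02. Whether members coincided beyond their separate detection was not tested. At least 3 of the 10 genes were detected in 17.9% (13.3 to 23.2), 3.18% (1.70 to 5.37), 3.38% (2.38 to 4.65) and 8.22% (6.92 to 9.67) of thinned CAF-marker cells, highest after GCV. At least 1 was detected in 73.8%, 47.7%, 40.4% and 63.9%. Among CAF-marker cells of Pdgfrb-TK/GCV, a Cdkn1a UMI was found in 18 of 35 cells with a Pdgfrb UMI (51.4%, 34.0 to 68.6) and 92 of 217 without (42.4%, 35.7 to 49.3). It was found in 6 of 17 cells with a UMI of the proliferation genes Mki67 or Top2a (35.3%, 14.2 to 61.7) and 104 of 235 without (44.3%, 37.8 to 50.9). Neither split separated the shares beyond their intervals at this number of cells.

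**Figure D3:**
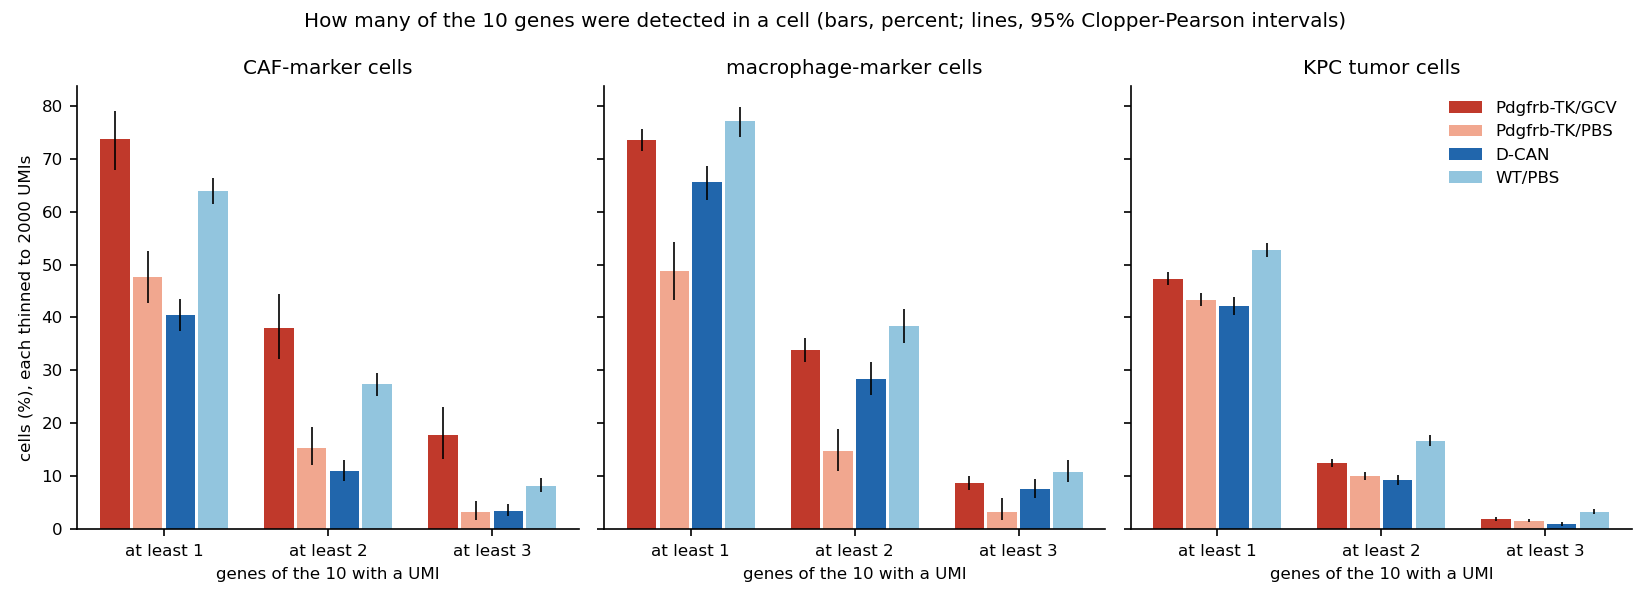
Share of cells (%, vertical axis from 0, each cell thinned to 2000 UMIs) in which at least 1, 2 or 3 of the 10 genes had a UMI, for CAF-marker, macrophage-marker and KPC tumor cells of the 4 libraries, with lines for 95% Clopper-Pearson intervals. In CAF-marker cells the GCV library is highest in each group of bars (17.9% with at least 3 genes), in macrophage-marker cells WT/PBS is highest, and in KPC tumor cells shares with at least 3 genes run from 0.959% to 3.32%.

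In macrophage-marker cells (2008, 510, 1073 and 966 cells) 5 of the 10 genes were at least 2-fold higher after GCV than in Pdgfrb-TK/PBS (6.47% of 12712 genes were), but most of these levels were also reached in WT/PBS. Cdkn1a stood at 450, 192, 361 and 569 CPM, 2.35-fold (2.09 to 2.65) above Pdgfrb-TK/PBS and 0.791-fold (0.759 to 0.824) against WT/PBS. Mdm2 stood at 162, 64.7, 142 and 160 CPM, and Pmaip1 at 60.4, 25.9, 98.7 and 56.8 CPM. For these 3 genes Pdgfrb-TK/PBS was the library that stood apart, below the other 3. Gdf15, at 67.4, 14.9, 62.3 and 183 CPM, was 4.53-fold (3 to 7.19) above Pdgfrb-TK/PBS and 0.368-fold (0.337 to 0.402) against WT/PBS, so its direction turned with the control. Cdkn1a missed 2-fold against Pdgfrb-TK/PBS when classes were taken from clusters (log2 ratio 0.94).

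Phlda3 kept its direction against both controls in macrophage-marker cells. It stood at 19.3, 5.82, 3.04 and 3.69 CPM, 3.32-fold (1.72 to 7.35) above Pdgfrb-TK/PBS from 241 against 9 UMIs and 5.25-fold (3.49 to 8.19) above WT/PBS. Ccng1 stood at 44.0, 26.5, 27.1 and 21.0 CPM, 1.66-fold (1.21 to 2.34) and 2.10-fold (1.74 to 2.53). Phlda3 and Ccng1 were the 2 genes at least 2-fold higher against WT/PBS (12.8% of 13351 genes were), while Fas and Gdf15 were at least 2-fold lower (4.77% were). Bax (127, 126, 122 and 96.1 CPM) and Bbc3 (5.86, 5.82, 9.61 and 10.8 CPM) were level between the Pdgfrb-TK libraries, at 1.01-fold (0.873 to 1.18) and 1.01-fold (0.502 to 2.29). Fas stood at 12.1, 8.41, 17.8 and 49.0 CPM, and Eda2r had 9, 0, 2 and 4 UMIs, too few to compare.

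A pair of clusters held most macrophage-marker cells and differed in share between libraries. The first, led by Chil3 and Arg1, held 977, 138, 284 and 730 of them, and the second, led by C1qa, Ccl24 and Aif1, 784, 262, 592 and 111. In the first, Phlda3 (28.7 against 4.03 CPM) and Gdf15 (102 against 22.2 CPM) were at least 2-fold higher after GCV than in Pdgfrb-TK/PBS (9.52% of genes were), and Cdkn1a was at 616 against 427 CPM. In the second, Cdkn1a (263 against 80.9 CPM), Mdm2 (80.0 against 35.2 CPM) and Pmaip1 (71.4 against 23.4 CPM) were (7.92% of genes were). Against WT/PBS, 2 of the 10 genes in the first (Ccng1 and Phlda3; 12.3% of genes) and 0 in the second (17% of genes) were at least 2-fold higher. Phlda3 was 8.88-fold (5.53 to 15.1) against WT/PBS in the first and 1.09-fold (0.384 to 4.26), from 30 against 4 UMIs, in the second. A further 527 macrophage-marker cells of all libraries lay in a cluster led by Ccl17, Wdfy4 and H2-Ab1 and were not compared separately.

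Endothelial-marker cells were few, 47 in Pdgfrb-TK/GCV and 124 in Pdgfrb-TK/PBS, with 97 in D-CAN and 373 in WT/PBS. Cdkn1a stood at 214, 66.4, 107 and 288 CPM, 3.22-fold (2 to 5.32) above Pdgfrb-TK/PBS and 0.742-fold (0.559 to 0.968) against WT/PBS. Bax stood at 254, 99.5, 159 and 112 CPM, and it was above both PBS libraries, by 2.55-fold (1.70 to 3.87) and 2.27-fold (1.72 to 2.95). Pmaip1 rested on 19 against 2 UMIs (68.8, 5.10, 33.6 and 46.6 CPM), a ratio of 13.5 (3.25 to 119), and overlapped WT/PBS. Phlda3 stood at 97.8, 20.4, 33.6 and 49.99 CPM, 4.79-fold (2.12 to 12.2) above Pdgfrb-TK/PBS. These 4 genes were at least 2-fold higher than in Pdgfrb-TK/PBS among 6 that met the minimum (4.81% of 5508 genes were). Against WT/PBS, Ccng1 and Bax were at least 2-fold higher (11.8% of genes were) and Fas and Gdf15 lower (13.8% were). A stricter gate left too few UMIs for any member to be at least 2-fold higher here. When classes were taken from clusters, Bax was not at least 2-fold higher than in Pdgfrb-TK/PBS, while Ccng1 was.

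In neutrophil-marker cells Cdkn1a was high in both Pdgfrb-TK libraries, at 983, 1143, 424 and 458 CPM. Pdgfrb-TK/GCV was at 0.860-fold (0.758 to 0.975) of Pdgfrb-TK/PBS, and Pdgfrb-TK/PBS was 2.50-fold (2.21 to 2.82) above WT/PBS (6.37% of genes were at least 2-fold higher). Mdm2 stood at 252, 133, 129 and 121 CPM, highest after GCV, 1.89-fold (1.38 to 2.62) and 2.09-fold (1.63 to 2.67) above the PBS libraries. Ccng1, at 44.4, 17.8, 27.0 and 15.1 CPM from 22, 8, 41 and 18 UMIs, was the 1 gene at least 2-fold higher than in Pdgfrb-TK/PBS (2.50-fold, 1.07 to 6.49, where 5.07% of genes were). Against WT/PBS, Cdkn1a, Mdm2 and Ccng1 were (7.55% of genes were), and Bbc3, Fas and Gdf15 were at least 2-fold lower (16.3% were). Median depth was 1650.5 UMIs after GCV and 1067.5 in Pdgfrb-TK/PBS in these cells. In B-marker cells Cdkn1a and Bax were at least 2-fold higher than in Pdgfrb-TK/PBS, where each had 1 UMI in 48 cells (20% of genes were), and in T/NK-marker cells, 20 in Pdgfrb-TK/PBS, no member met the minimum.

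In KPC tumor cells none of the 10 genes was at least 2-fold higher after GCV than in Pdgfrb-TK/PBS once 1 CPM was added to both values (3.61% of 17513 genes were), and 10 of the 10 met the minimum. Without that addition Eda2r and Gdf15, both below 2 CPM in the Pdgfrb-TK libraries, were beyond 2-fold. Cdkn1a stood at 76.6, 58.4, 49.6 and 91.9 CPM, 1.31-fold (1.26 to 1.36) above Pdgfrb-TK/PBS and 0.833-fold (0.809 to 0.858) against WT/PBS. The GCV value thus lay between those of the PBS libraries. Mdm2 (45.3, 32.2, 42.2 and 47.3 CPM) and Phlda3 (43.5, 33.6, 51.9 and 40.7 CPM) were both lowest in Pdgfrb-TK/PBS. Ccng1 (16.5, 18.8, 16.0 and 14.1 CPM) and Bax (100, 109, 102 and 97.5 CPM) were slightly lower after GCV, at 0.876-fold (0.816 to 0.941) and 0.915-fold (0.888 to 0.942).

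Pmaip1 stood at 63.6, 57.0, 41.5 and 120 CPM in KPC tumor cells and Bbc3 at 9.35, 8.002, 12.5 and 17.5 CPM, each highest in WT/PBS. Fas stood at 1.91, 1.24, 10.3 and 9.12 CPM, lower in both Pdgfrb-TK libraries than in D-CAN and WT/PBS. These pairs of libraries also differed in experiment and counting reference, which cannot be told apart from host genotype. Gdf15 (1.73, 0.775, 1.23 and 8.70 CPM) was 2.23-fold (1.65 to 3.05) above Pdgfrb-TK/PBS at a level near 1 CPM, a log2 ratio of 0.62 with 1 CPM added. Eda2r stood below 1 CPM in KPC tumor cells of every library and was highest after GCV, with 77, 5, 8 and 34 UMIs or 0.744, 0.0668, 0.0827 and 0.297 CPM. Its fold was 11.1 (4.57 to 35.2) against Pdgfrb-TK/PBS and 2.51 (1.65 to 3.87) against WT/PBS, a log2 ratio of 0.71 and 0.43 with 1 CPM added. Macrophage markers summed to 102, 37.8, 23.2 and 24.0 CPM in KPC tumor cells, with 10 of 10 above 0 in each library, and CAF markers to 68.3, 65.9, 89.4 and 133 CPM. Their part in the Eda2r counts was not tested.

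The largest clusters of KPC tumor cells were different ones in the 4 libraries, so that each value is a mean over another mix. Summed over the 10 genes, the level was 359 against 320 CPM in the Pdgfrb-TK libraries, 1.12-fold (1.11 to 1.14), beside 2.53-fold in CAF-marker, 2.86-fold (2.27 to 3.63) in endothelial-marker, 2.02-fold (1.88 to 2.18) in macrophage-marker and 1.01-fold (0.907 to 1.11) in neutrophil-marker cells. Against WT/PBS the sums were 0.803-fold (0.792 to 0.813) in KPC tumor cells, 1.56-fold (1.5 to 1.62) in CAF-marker, 1.07-fold (0.927 to 1.23) in endothelial-marker, 0.825-fold (0.802 to 0.849) in macrophage-marker and 1.54-fold (1.41 to 1.69) in neutrophil-marker cells. Cdkn1a weighs on these sums, with 983 of 1578 CPM in neutrophil-marker and 480 of 1113 CPM in CAF-marker cells after GCV. In KPC tumor cells after GCV it made up 76.6 of 359 CPM. Sums without Cdkn1a were not computed. A Cdkn1a UMI was found in 12.1%, 10.2%, 7.76% and 15.4% of thinned KPC tumor cells. The share after GCV was 1.19-fold (1.07 to 1.32) that of Pdgfrb-TK/PBS, and 2.06-fold (1.62 to 2.65) in macrophage-marker cells, where it was 45.7% against 22.2%. Against WT/PBS, 0 genes were at least 2-fold higher in KPC tumor cells (4.85% of genes were) and Fas and Gdf15 were lower (1.45% were).

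Host and tumor cells were set side by side by averaging the CPM of the 3 host classes with at least 50 cells in both Pdgfrb-TK libraries (CAF, macrophage and neutrophil), each with equal weight. Against Pdgfrb-TK/PBS, the median log2 ratio of the 10 genes after GCV was 0.67 in host cells, with 10 of 10 above 0. It was 0.37 in KPC tumor cells, with 8 of 10 above 0. Pmaip1, at 0.15 in KPC tumor cells, turned to -0.01 with median-of-ratios scaling. The member farthest apart was Ccng1, at 1.23 in host and -0.18 in KPC tumor cells, followed by Gdf15 at 1.77 and 0.62. Cdkn1a was at 0.41 and 0.38, since the high neutrophil values in both libraries weigh on its host mean. All genes that met the minimum had a median of -0.07 in host cells, with 42.9% above 0, and of 0.11 in KPC tumor cells, with 64.2% above 0. Against WT/PBS, the host average was lower for Fas (39.6 against 121 CPM), Gdf15 (27.0 against 81.6), Bbc3 (5.94 against 12.6) and Pmaip1 (58.3 against 72.2). It was higher for the other members, and 49.0% of all genes were above 0. In KPC tumor cells 4 of the 10 genes were above 0 against WT/PBS, where 59.7% of all genes were. Whether host and tumor cells differ beyond libraries was not tested, since 1 library per condition allows no such test.

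**Figure D4:**
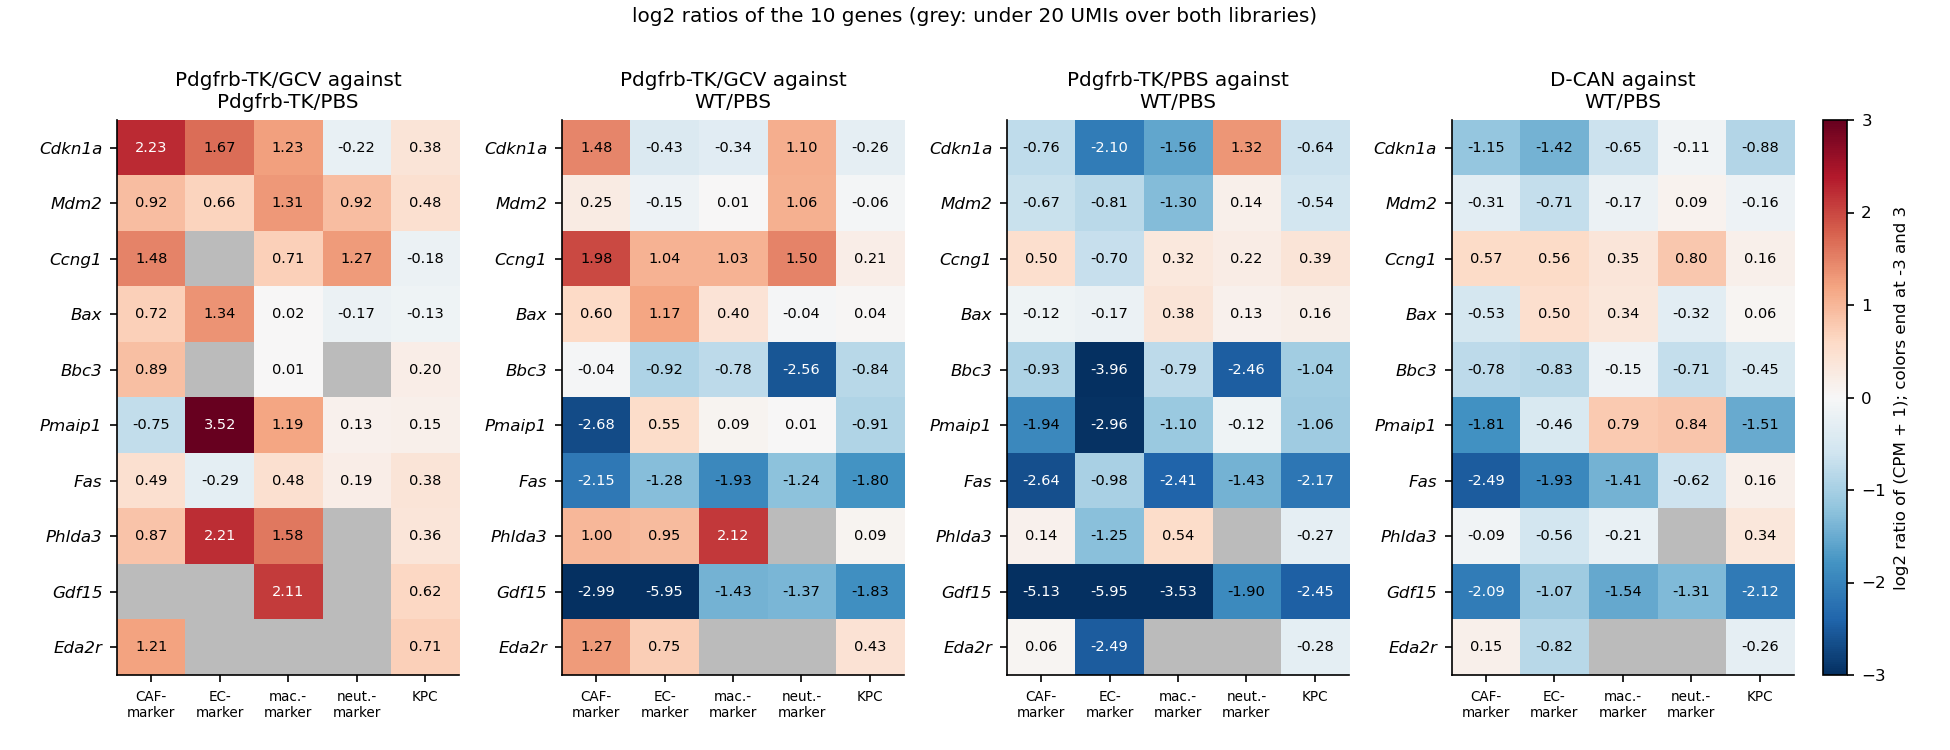
Log2 ratios with 1 CPM added (color, red for higher and blue for lower, with the value printed in each field) of the 10 genes in 5 cell classes for 4 comparisons, which share control libraries, with grey for fewer than 20 UMIs over both libraries. The first panel is mostly red in host classes (Cdkn1a 2.23 in CAF-marker cells) and pale in KPC tumor cells. The panels against WT/PBS are blue for Fas and Gdf15, except for Fas in KPC tumor cells of D-CAN (0.16).

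The D-CAN library shares the WT/PBS control with the comparison above. Against WT/PBS, no member was at least 2-fold higher in CAF-marker, endothelial-marker, macrophage-marker, neutrophil-marker or KPC tumor cells, where 10.7%, 14.7%, 13.1%, 12.4% and 7% of genes were. In CAF-marker cells Cdkn1a (log2 ratio -1.15), Pmaip1 (-1.81), Fas (-2.49) and Gdf15 (-2.09) were at least 2-fold lower (6.99% of 15449 genes were). Ccng1 was 1.5-fold (1.33 to 1.68) higher and Phlda3 was 0.936-fold (0.866 to 1.01). Cdkn1a, Fas and Gdf15 were at least 2-fold lower in endothelial-marker cells (5.58% were), Fas and Gdf15 in macrophage-marker cells (4.44% were), Gdf15 in neutrophil-marker cells (9.63% were), and Pmaip1 and Gdf15 in KPC tumor cells (2.01% were).

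The WT/PBS library bears on these values, since it was high in several members. Compared with it, Pdgfrb-TK/PBS was at least 2-fold lower in 6 members in endothelial-marker cells (10.8% of genes were), 5 members in macrophage-marker cells (8.35% were), 3 in neutrophil-marker cells (14.2% were) and 4 in KPC tumor cells (3.64% were). Gdf15 was among them in each of these classes. In CAF-marker cells, heat shock genes, which cells also switch on during dissociation, were highest in WT/PBS as well. Hspa1a stood at 225, 59.6, 366 and 2418 CPM in CAF-marker cells and Atf3, an immediate stress factor, at 64.7, 30.2, 108 and 313 CPM. Their order of libraries was that of Gdf15, Fas and Pmaip1 in having WT/PBS at the top, and unlike that of Cdkn1a, Mdm2, Ccng1, Bax, Phlda3 and Eda2r, which had Pdgfrb-TK/GCV at the top. The part of handling in either set was not tested, and Atf3 was named after its values were seen.

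**Figure D5:**
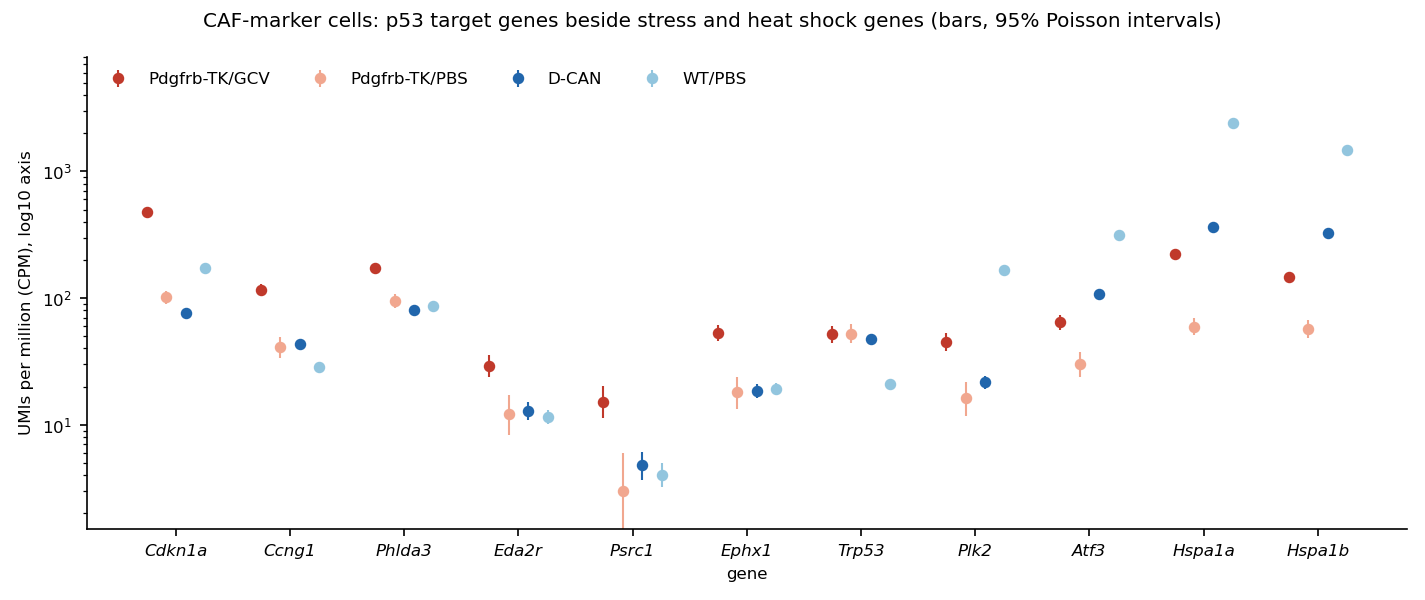
CPM (vertical, log10 axis) of selected p53 target genes, Trp53 and stress genes in CAF-marker cells. Each library is 1 point, with bars for 95% Poisson intervals. Genes were selected with their values known, and Plk2 belongs to the p53 pathway list. Of the members not shown, Mdm2 and Bax were highest in Pdgfrb-TK/GCV. Bbc3, Pmaip1, Fas and Gdf15 were highest in WT/PBS, Bbc3 with intervals that overlapped those of Pdgfrb-TK/GCV. Cdkn1a, Ccng1, Phlda3, Eda2r, Psrc1 and Ephx1 are highest in Pdgfrb-TK/GCV, while Plk2, Atf3, Hspa1a and Hspa1b are highest in WT/PBS (2418 CPM for Hspa1a).

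Other genes of the p53 pathway were listed to see how far the pattern extended. Of 38 such genes, 34 met the minimum in CAF-marker cells, and 6 of them were at least 2-fold higher after GCV than in Pdgfrb-TK/PBS and 0 lower. They were Psrc1, a microtubule regulator (15.2, 3.02, 4.77 and 4.02 CPM, 5.05-fold, 2.37 to 12.3), Ephx1, an epoxide hydrolase (53.2, 18.1, 18.6 and 19.3 CPM, 2.94-fold, 2.12 to 4.13), Plk2, Sesn2, Btg2 and Tnfrsf10b, named after their values were seen. Psrc1 and Ephx1 were also at least 2-fold higher than in WT/PBS, whereas Plk2 (45.4, 16.2, 21.7 and 166 CPM) was at least 2-fold lower. The median log2 ratio of the 38 genes was 0.25, against -0.14 for all genes that met the minimum. In macrophage-marker cells 4 of the 38 were at least 2-fold higher (Ddit4, Plk2, Ak1 and Gadd45a) where 6.47% of all genes were, and in KPC tumor cells 2 were (Plk2 and Gadd45a), where 3.61% of all genes were. None was lower in either, and Ddit4, Ak1 and Gadd45a were also named after their values were seen.

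Lists of neighboring processes were counted in the same way. Of all genes, 2.49% were at least 2-fold higher after GCV in CAF-marker, 4.81% in endothelial-marker, 6.47% in macrophage-marker and 3.61% in KPC tumor cells. Of 13 dissociation and immediate early genes, 5 were at least 2-fold higher in CAF-marker cells after GCV, 9 in endothelial-marker, 4 in macrophage-marker and 5 in KPC tumor cells. Their median log2 ratios in these classes were 0.74, 1.43, 0.82 and 0.76, beside 0.91, 1.70, 0.99 and 0.37 for the 10 members. In neutrophil-marker cells the medians were -0.07 and 0.36. In CAF-marker cells against WT/PBS, 0 of the 13 were higher and 4 lower, with a median of -0.74, beside 0.42 for the members. Integrated stress response genes were higher in 2 of 10 in CAF-marker, 4 in macrophage-marker and 2 in KPC tumor cells. Of 20 cell cycle genes, Rrm2, a ribonucleotide reductase subunit, was higher in CAF-marker cells (39.8 against 15.8 CPM), and none was in KPC tumor cells. Among 11 other BCL2 family genes and 6 other CDK inhibitors, 0 were higher in CAF-marker cells, Bcl2 was lower (17.7 against 42.6 CPM) and so was Cdkn2a, another gene of arrest (32.3 against 88.7 CPM). Rrm2, Bcl2 and Cdkn2a were named after their values were seen. Of 8 genes for nucleoside salvage and transport, 0 differed by 2-fold in CAF-marker cells.

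Across the lists, 4 genes were at least 2-fold higher after GCV in most of the 6 host classes. They were Hspa1b in 5 classes and Hspa1a, Plk2 and Ppp1r15a in 4. Of the 10 members, Cdkn1a was at least 2-fold higher in 4 classes, the fourth being B-marker cells with 19 against 1 UMI, and each of the others in fewer. B-marker cells, where 20% of genes were higher, also count for Plk2 and Hspa1b. T/NK-marker cells count for Hspa1a, Hspa1b and Ppp1r15a. Pdgfrb-TK/PBS had 48 B-marker and 20 T/NK-marker cells. The share of all genes at least 2-fold higher in as many classes was not computed. Hspa1a and Plk2 were also at least 2-fold higher in KPC tumor cells, at 61.5 against 14.5 CPM (4.24-fold, 3.98 to 4.53) and 65.0 against 19.1 CPM (3.39-fold, 3.20 to 3.60). The 10 members had log2 ratios below 1 in these tumor cells.

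The genes most like the members were sought over 19 points, the combinations of 6 host classes and 4 libraries with at least 50 cells, after centring each class. With the mean of the 10 members, Pearson's r was highest for Cdc34 (0.940), Trib3 (0.893), Ehd1 (0.883), Jmjd6 (0.874), Bmp2 (0.865), Btg1 (0.863), Hoxd9 (0.862), Rela (0.862), Rnd1 (0.860) and Dusp10 (0.860) among 14357 genes. These points share libraries and depth, so the values only describe this table. The class-centred mean of the members was higher in WT/PBS than in Pdgfrb-TK/GCV in CAF-marker (0.53 against 0.40) and macrophage-marker cells (0.34 against 0.27). In neutrophil-marker cells it was lower in WT/PBS (0.15 against 0.27). The 47 endothelial-marker cells of Pdgfrb-TK/GCV gave no point. Likeness here is thus to levels over all libraries, not to the difference after GCV. The members themselves ranged from 0.314 for Bax to 0.888 for Gdf15, and Ccng1 (0.348) and Phlda3 (0.427) were near the lower end. Each member was correlated with a mean that includes it, so its value is not comparable with those of the other genes.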

How the data were processed

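Single-cell suspensions of KPC tumors were sequenced with 10x Genomics 3′ chemistry, and the authors deposited UMI counts per gene and cell made with Cell Ranger on mm10. The file headers name version 7.0.0, and the submitters' processing notes name STAR 2.6. Counts were read as deposited, and cells with at least 200 genes were kept. Cells were assigned by markers, with at least 3 KPC or 2 host markers detected and a highest class score at least 1.5 times the next, a rule set after the files were seen. The 10 members and the gene lists were chosen with earlier results of these data known. The genes named from the lists were those at least 2-fold different in most host classes, Trp53 and the 10 most alike in pattern, and others are marked. Label text on sample handling also describes nuclei of another tissue, so samples were matched by title.

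UMIs were summed per class and library and divided by the class total (CPM, over all genes, mitochondrial ones included). With 1 library per condition no test was run, and no count model was used. Ratios used 1 CPM added to both values, and genes needed 20 UMIs over both libraries. Intervals were Poisson, conditional binomial or Clopper-Pearson. For folds of shares of cells, the conditional binomial interval took numbers of cells as Poisson counts, so it is approximate. The 10 genes lay outside the marker lists but were among the genes open to clustering (2000 variable genes, 10 components, 20 neighbors, resolution 0.8). Doublets were kept, and an alternative left out the 8% with the highest Scrublet scores. Python 3.11.15, numpy 2.4.6, scipy 1.17.1, scanpy 1.11.5 and pandas 2.3.3 were used, and the calculations were tested on simulated data. Alternatives covered the control, filters, scaling, pseudocount, gate, clusters, doublets, fold and UMI minimum, and the splits by mesothelial UMIs and macrophage cluster and the wider host average were added after seeing the data.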

Additional observations from a re-analysis of the deposited data

Results flagged for a closer look

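Cdkn1a was higher after GCV and lower after D-CAN, each against the PBS library of its own mice, in CAF-marker cells (log2 ratio 2.23 and -1.15) and in endothelial-marker cells (1.67 and -1.42). Gdf15 did the same in macrophage-marker cells (2.11 and -1.54). Each direction rests on 1 library per condition, and the difference was not tested. Against WT/PBS, the control used for D-CAN, Pdgfrb-TK/GCV was lower too for Cdkn1a in endothelial-marker cells (-0.43) and Gdf15 in macrophage-marker cells (-1.43), and higher for Cdkn1a in CAF-marker cells (1.48). Features of GFP and Tdtomato, which are not mouse genes, were counted in D-CAN with 1284 UMIs and in the WT/PBS library with 3856 UMIs and were used in no comparison. D-CAN and WT/PBS each listed 5 such features and the Pdgfrb-TK libraries 0, so the reference used for counting differed between the pairs.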

How the results depend on the processing

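No paired analysis was possible because each condition had 1 library. Of 490 single-gene values under alternatives, 44 changed sign, 21 of 50 with WT/PBS as control and 23 of 440 under the other settings. Among genes at least 2-fold higher, 3 values changed sign, with WT/PBS as control: Cdkn1a in endothelial-marker (-0.43) and macrophage-marker cells (-0.34) and Gdf15 in macrophage-marker cells (-1.43). The number of members at least 2-fold higher in CAF-marker cells was 3. It became 6 with median-of-ratios scaling (3.82% of all genes, against 2.49%), 7 at 1.5-fold (6.95% of all genes) and 6 in cells with a mesothelial UMI (2.88%). Cdkn1a and Ccng1 were among them under each alternative. The 4 in endothelial-marker cells became 2 against WT/PBS (11.8% of all genes), 0 with the stricter gate and 7 with no UMI minimum. With classes from clusters they were 4 again, with Ccng1 in place of Bax. The 5 in macrophage-marker cells became 2 against WT/PBS (12.8% of all genes) and 3 with 10 CPM added (1.11%). They became 2 in cluster 10 (Chil3, Arg1), where 9.52% of genes were at least 2-fold higher, and 3 in cluster 11 (C1qa), where 7.92% were. The number was 4 with classes from clusters, without Cdkn1a. The 1 in neutrophil-marker cells (5.07% of all genes) became 3 against WT/PBS (7.55%) and 2 with median-of-ratios scaling (6.2%). It became 0 with 10 CPM added (2.63% of all genes) and 2 at 1.5-fold (15.02%). The number in these cells was 0 with the stricter gate, 2 without likely doublets and 3 with no UMI minimum. The 0 in KPC tumor cells became 2 at 1.5-fold (Gdf15 and Eda2r), where 10.8% of all genes were higher. Shares of all genes were not computed for the stricter gate, classes from clusters, the doublet filter or no UMI minimum. Thinned to 1000 UMIs, the fold of the share of cells with Cdkn1a became 5.56 in CAF-marker and 1.36 in KPC tumor cells. The cause was not tested. Median-of-ratios scaling changed Cdkn1a from 2.23 to 2.41 in CAF-marker and from 0.38 to 0.22 in KPC tumor cells. Few cells limit endothelial-marker and neutrophil-marker values.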
